A study of Mus musculus with 6 samples.

Results

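The growth hormone and insulin-like growth factor (IGF) axis was examined in mouse liver through 10 genes chosen by name: Ghr, Prlr, Stat5b, Bcl6, Socs2, Cish, Igf1, Igfals, Igfbp2 and Igfbp4. All 10 were found among the 24341 gene symbols of the expression table. The livers labelled Prkciflox/floxAlbCre (3 samples, called labelled knockout here) carried loxP-flanked alleles of Prkci and a Cre recombinase driven by the albumin promoter, which is active in hepatocytes. The Prkciflox/flox livers (3 samples, called controls) carried the same flanked alleles without Cre, so an effect of Cre itself and one of losing Prkci cannot be told apart. All mice were of the C57BL/6 background and ate regular chow. Their age is 30 weeks in the sample labels and 28 weeks in the design text. Poly(A) RNA of whole liver was sequenced once per sample, and levels are given in FPKM (read fragments per kilobase of transcript, corrected for library total), in the order of replicates 1, 2 and 3. Whether the samples are separate animals is not stated in the labels, so the tests reflect sample-to-sample spread, which may be technical. The series title names autophagy, oxidative phosphorylation and liver cancer as its subject.

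Growth hormone from the pituitary binds its receptor GHR on hepatocytes, the kinase JAK2 at the receptor phosphorylates STAT5B, and STAT5B enters the nucleus and switches on genes such as Igf1, Igfals, Socs2 and Cish. SOCS2 and CISH then dampen the signal, and the repressor BCL6 can occupy the same DNA sites as STAT5. Liver is the main source of circulating IGF1, which travels in a complex with IGFALS and a binding protein. The rhythm of growth hormone release differs between the sexes and sets the sex bias of many liver genes.

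Prkci, the targeted gene, was at 5.70, 5.26 and 4.42 FPKM in the labelled knockout livers and at 5.57, 3.65 and 4.44 FPKM in the controls, so the targeted transcript was not lower. The value covers the whole gene and all cells of the liver, and the sources used here do not give the deleted part, so it does not check the labels and each group is named by its label. Read totals estimated from the steps between low values were 14780000 to 17620000 per library, and a single read adds 0.0315 to 0.0376 FPKM to a gene of 2000 bases. Of 10 hepatocyte markers, 9 passed the filter on low values while Alb had a listed value of 0 in each of the 6 libraries, so a 0 can be a failed estimate. Summed hepatocyte markers were at 12339 to 23852 FPKM in the labelled knockout livers and 17507 to 28973 FPKM in the controls. Summed levels of 10 Kupffer cell and macrophage markers (221 to 735 against 117 to 535 FPKM), 10 sinusoidal endothelial markers (158 to 291 against 98.1 to 326 FPKM) and 10 stellate markers (152 to 266 against 169 to 247 FPKM) overlapped between labelled knockout and control livers. Markers of cholangiocytes (15.0 to 146 against 29.4 to 59.9 FPKM over 7 genes) and of lymphocytes and neutrophils (9.52 to 263 against 5.88 to 27.3 FPKM over 7 genes) were highest in labelled knockout replicate 1. In whole liver, fewer cells of a type and less RNA per cell cannot be told apart.

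The labels give no sex, which matters for this axis. Xist, the RNA that silences one X chromosome in females, was at 47.9, 34.6 and 39.1 FPKM in the labelled knockout livers and at 52.9, 56.3 and 36.1 FPKM in the controls. The Y-linked genes Ddx3y, Kdm5d and Uty were listed at 0 in all 6 libraries. The Y-linked gene Eif2s3y was at 0.0362, 0 and 0.0795 FPKM in the labelled knockout livers and listed at 0 in the controls. All 6 livers thus showed the female pattern, with Xist present and Y-linked genes at or near 0.

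The promoters of 9 of the 10 genes were found in RefSeq (build GRCm38.p6), as 17 windows from 250 bases before to 50 bases after an annotated start, and Socs2 had no entry. They were searched for TTCNNNGAA, the form of the site that STAT5 and BCL6 can both bind. The motif reads the same in form on the other strand, so a single search covers both. It was in 6 of the 17 windows, belonging to Prlr, Bcl6, Cish and Igfals, and in 8.30% of all 32851 windows of the same length. The windows shown are the one of Cish, a classical STAT5 target, and those of Bcl6, Prlr and Igfals with a match nearest to a start or with most matches. Capitals mark the motif, and each sequence runs 5′ to 3′ along the gene's own strand. The data do not say which start these livers use, and a match is a description of the letters only.
Cish, chr9:107296409-107296708, plus strand: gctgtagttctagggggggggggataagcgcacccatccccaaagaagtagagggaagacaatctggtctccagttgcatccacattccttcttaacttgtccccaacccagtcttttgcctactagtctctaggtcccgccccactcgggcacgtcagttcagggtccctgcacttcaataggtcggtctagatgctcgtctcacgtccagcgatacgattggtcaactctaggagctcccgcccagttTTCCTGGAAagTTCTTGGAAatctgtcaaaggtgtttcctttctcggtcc
Bcl6, chr16:23981234-23981533, minus strand: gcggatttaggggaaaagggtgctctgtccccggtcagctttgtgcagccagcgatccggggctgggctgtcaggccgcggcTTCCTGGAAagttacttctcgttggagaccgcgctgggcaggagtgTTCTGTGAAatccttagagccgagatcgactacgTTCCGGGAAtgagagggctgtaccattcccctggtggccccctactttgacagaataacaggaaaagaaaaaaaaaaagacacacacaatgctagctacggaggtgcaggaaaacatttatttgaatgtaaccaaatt
Prlr, chr15:10223656-10223955, plus strand: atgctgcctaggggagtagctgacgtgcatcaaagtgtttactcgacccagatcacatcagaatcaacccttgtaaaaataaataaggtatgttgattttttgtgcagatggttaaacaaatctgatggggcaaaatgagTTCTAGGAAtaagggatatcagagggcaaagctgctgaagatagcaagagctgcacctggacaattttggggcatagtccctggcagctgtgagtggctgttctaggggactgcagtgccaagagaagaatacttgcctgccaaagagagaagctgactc
Igfals, chr17:24877981-24878280, plus strand: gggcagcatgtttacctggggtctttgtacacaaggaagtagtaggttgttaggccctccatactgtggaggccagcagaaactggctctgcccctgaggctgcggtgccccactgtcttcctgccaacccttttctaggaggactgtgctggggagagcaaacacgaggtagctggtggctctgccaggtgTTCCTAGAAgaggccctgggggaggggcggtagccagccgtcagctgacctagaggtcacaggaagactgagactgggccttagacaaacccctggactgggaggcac

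In the Cish window TTCCTGGAA and TTCTTGGAA begin at positions 1 and 12 of the annotated transcript. The Bcl6 window holds TTCCTGGAA, TTCTGTGAA and TTCCGGGAA from positions -168, -122 and -88 relative to the start, and 3 or more matches occur in 11 of all windows. Prlr has TTCTAGGAA from position -110, and Igfals has TTCCTAGAA from position -58. The starts of the windows shown all lie inside the annotated span of their genes. The Bcl6 window at the 5′ end of the gene holds 1 match, TTCTCAGAA from position -118. The windows of Ghr, Stat5b, Igf1, Igfbp2 and Igfbp4 hold none of these letters in this order.

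Levels per length spanned a wide range over the axis genes. Igfbp4 and Igfbp2 were the most abundant, with means of 819 and 653 FPKM in the labelled knockout livers and 842 and 298 FPKM in the controls. These genes overlapped in level in the labelled knockout livers but not in the controls, where Igfbp2 overlapped with Ghr. Ghr, Igf1, Prlr and Igfals followed at 137, 122, 106 and 52.8 FPKM in the labelled knockout livers and at 211, 156, 177 and 80.2 FPKM in the controls. Of these, Ghr, Igf1 and Prlr overlapped in each group, and Igfals lay below all of them. Stat5b, Socs2, Cish and Bcl6 stood lowest, at 16.4, 10.6, 7.67 and 5.09 FPKM in the labelled knockout livers and at 16.0, 11.9, 11.6 and 2.44 FPKM in the controls. Neighbours among these last genes overlapped in level, except that Bcl6 in the controls lay below every other member.

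**Figure D1:**
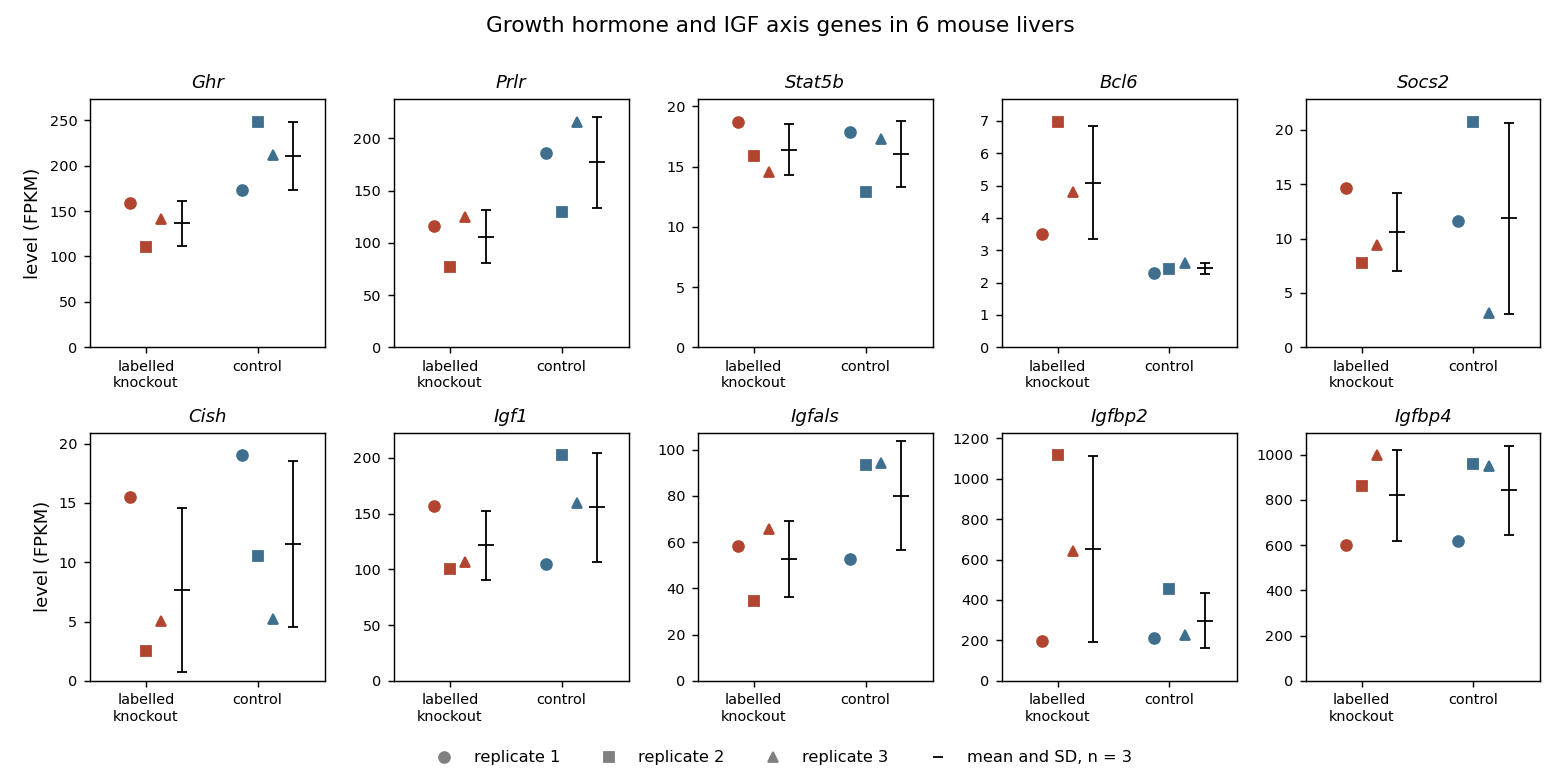
Level in FPKM (vertical axes, each starting at 0) of the 10 axis genes in 3 labelled knockout livers (red, left) and 3 control livers (blue, right). Symbols give the replicate number and bars the mean with SD (n = 3). The groups do not overlap for Ghr, Prlr and Bcl6, and labelled knockout replicate 1 lies below every control for Igfbp2 and among the controls for Igf1.

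Both hormone receptors were lower in the labelled knockout livers and the repressor Bcl6 was higher, while the other 7 genes overlapped between groups. None of the 10 passed the test over all 10963 tested genes (limma, Benjamini-Hochberg adjusted p from 0.384 to 0.975), a threshold that 0.0274% of tested genes passed. At an unadjusted p under 0.05 limma gave 3 of the 10, against 9.93% of all tested genes, and the same 3 were those whose groups did not overlap, against 16.3% of all tested genes. The count at an unadjusted p under 0.05 was 5 without labelled knockout replicate 1, which adds Cish and Igfbp2, where 17.5% of all tested genes had such a p. It was 1 (Bcl6) without labelled knockout replicate 2 (6.04% of all tested genes) or without control replicate 3 (7.91%), and 2 (Prlr and Bcl6) without control replicate 2 (6.95%). Non-overlap was seen for 5 without labelled knockout replicate 1 (Cish and Igfbp2 added), against 38.4% of all tested genes, and for 5 without control replicate 1 (Igf1 and Igfals added), against 25.5%. For 1 gene alone, exact permutation of 3 and 3 livers (two-sided) reaches p = 0.1 at best.

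Ghr, the growth hormone receptor, was at 159, 109.9 and 141 FPKM in the labelled knockout livers and at 174, 248 and 211 FPKM in the controls. Each labelled knockout liver lay below each control, by a narrow margin between the livers numbered 1. The means were 137 ± 24.6 and 211 ± 37.4 FPKM (SD, n = 3 each). The log2 difference was -0.63 (SE 0.20, 95% interval -1.11 to -0.14, limma adjusted p = 0.428). Over 19 alternative settings it ran from -0.87 to -0.35, with an adjusted p between 0.0699 and 1.00. Ghr occupies the minus strand of chromosome 15, bases 3317760 to 3583492 of mm10, without an overlapping gene in the annotation.

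Prlr encodes the prolactin receptor, which signals through the same JAK2 and STAT5 route and is itself a growth hormone dependent gene of female liver. It was at 116, 77.0 and 125 FPKM in the labelled knockout livers and at 186, 129.6 and 216 FPKM in the controls. Again every labelled knockout liver lay below every control, with labelled knockout replicate 3 and control replicate 2 close together. The means were 106 ± 25.5 and 177 ± 43.8 FPKM, a log2 difference of -0.73 (SE 0.26, 95% interval -1.36 to -0.11, limma adjusted p = 0.458). The ratio of labelled knockout to control was 0.624, 0.594 and 0.579 for the livers numbered 1, 2 and 3. With the libraries rescaled to a common sum the groups overlapped, at a log2 difference of -0.72. Prlr spans chromosome 15 from 10177238 to 10349180 on the plus strand and overlaps Gm21973 on that strand, so reads could be shared, and the value does not separate its long and short receptor forms.

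Relative to Ghr, Prlr had no set proportion. The ratio of Prlr to Ghr was 0.731, 0.701 and 0.885 in the labelled knockout livers and 1.07, 0.522 and 1.02 in the controls, with overlap between the groups.

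Stat5b, the transcription factor that carries the hormone signal to the nucleus, was at 18.7, 15.9 and 14.6 FPKM in the labelled knockout livers and at 17.9, 12.9 and 17.3 FPKM in the controls. The groups overlapped, although labelled knockout replicate 1 was the highest liver and control replicate 2 the lowest. Their log2 difference was 0.04 (95% interval -0.36 to 0.43, limma adjusted p = 0.959), with a sign that turned under median centring (-0.02) and quantile normalization (-0.0046). Stat5b varied least of the 10, with a highest level 1.45 times its lowest.

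Bcl6 encodes a zinc finger repressor that growth hormone lowers in liver. It was at 3.50, 6.97 and 4.81 FPKM in the labelled knockout livers and at 2.29, 2.41 and 2.61 FPKM in the controls. The controls were tightly grouped, and each labelled knockout liver lay above them, replicate 2 farthest. The means were 5.09 ± 1.75 and 2.44 ± 0.161 FPKM, which is 2.09 times the control mean. The log2 difference was 0.79 (SE 0.22, 95% interval 0.26 to 1.31, limma adjusted p = 0.384), the smallest adjusted p of the 10. It passed with sample quality weights (adjusted p = 0.0419), which give labelled knockout replicate 1 a weight of 0.264 and replicate 3 a weight of 8.30, within a range of 0.0419 to 1.00 over 18 alternatives. Under quantile normalization the groups overlapped. Bcl6 occupies the minus strand of chromosome 16, bases 23965052 to 23988852, opposite Gm37419, and strand use in counting is not given.

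**Figure D2:**
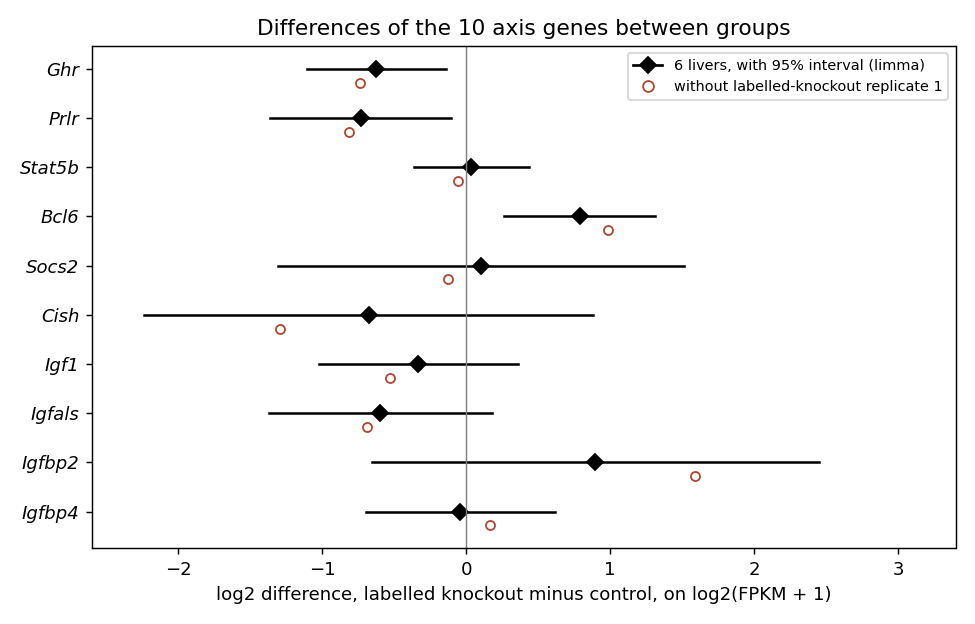
Log2 difference of the 10 axis genes between labelled knockout and control livers on the log2(FPKM + 1) scale (horizontal axis), with the 95% interval of limma over 6 livers (black) and the estimate without labelled knockout replicate 1 (open red circles). The intervals of Ghr, Prlr and Bcl6 lie on one side of 0, and the estimate of Igfbp2 moves from 0.90 to 1.59 without that liver.

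The feedback genes differed widely between single livers, and both overlapped between groups. Socs2, a suppressor of cytokine signalling that limits growth hormone action, was at 14.6, 7.79 and 9.45 FPKM in the labelled knockout livers and at 11.6, 20.7 and 3.20 FPKM in the controls. The labelled knockout livers lay inside the range of the controls, whose highest and lowest values were 6.48 times apart. The log2 difference was 0.10 (95% interval -1.31 to 1.52, limma adjusted p = 0.97) although the mean FPKM was lower in the labelled knockout livers, and without control replicate 3 it was -0.56.

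Cish, of the same family, was at 15.5, 2.48 and 5.03 FPKM in the labelled knockout livers and at 19.0, 10.5 and 5.18 FPKM in the controls. In each group replicate 1 was the highest. The log2 difference was -0.68 (95% interval -2.24 to 0.88, limma adjusted p = 0.769) and -1.30 without labelled knockout replicate 1 (adjusted p = 0.259). It was -0.17 without labelled knockout replicate 2, -0.26 without control replicate 1 and -1.11 without control replicate 3. Cish, on chromosome 9 from 107296026 to 107302784, lies opposite the antisense gene Gm17041 and the pseudogene Gm17040. Against the control of the same number, labelled knockout replicates 1, 2 and 3 had 1.26, 0.376 and 2.95 times the Socs2 level. For Cish these ratios were 0.814, 0.237 and 0.971. Both genes were thus lower in replicate 2, and Cish alone in replicates 1 and 3.

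Among the secreted products, Igf1 and Igfals were lower in mean and overlapped between groups. Igf1, the growth factor itself, was at 157, 101 and 107 FPKM in the labelled knockout livers and at 105, 202 and 159.9 FPKM in the controls. Labelled knockout replicates 2 and 3 and control replicate 1 shared the low end, and labelled knockout replicate 1 lay close to control replicate 3. The means were 122 ± 31.0 and 156 ± 48.9 FPKM, a log2 difference of -0.33 (95% interval -1.02 to 0.36, limma adjusted p = 0.740). Without both livers numbered 1 it was -0.79 (adjusted p = 0.188), while without both numbered 2 it was -1.6e-05 (adjusted p = 1.00). It was -0.53 without labelled knockout replicate 1, -0.21 without labelled knockout replicate 2, -0.59 without control replicate 1 and -0.12 without control replicate 2. Igf1 lies on chromosome 10 from 87858265 to 87937042, opposite the antisense gene Igf1os.

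Igfals encodes the acid-labile subunit that stabilizes IGF1 in blood. Its levels were 58.2, 34.4 and 65.7 FPKM in the labelled knockout livers and 52.8, 93.5 and 94.2 FPKM in the controls. Only control replicate 1 among the controls lay within the range of the labelled knockout livers. The log2 difference was -0.60 (SE 0.32, 95% interval -1.37 to 0.18, limma adjusted p = 0.591), and -0.87 without control replicate 1 (adjusted p = 0.659). It was -0.32 without labelled knockout replicate 2 and -0.19 without both livers numbered 2. Igfals lies on chromosome 17 from 24865997 to 24882010.

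The tested genes with profiles nearest to Igf1 over the 6 livers, by root mean square difference of centred log2 values, were Acsm5 (0.111), Ass1 (0.132), Gne (0.142), Rpl34 (0.148) and Mast3 (0.150). The median over all tested genes was 0.439, and Igf1 itself spread by 0.379 around its mean. Among the axis genes Ghr was nearest to Igf1 (0.226) and Igfbp2 farthest (1.13).

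Of the binding protein genes, Igfbp2 was higher in mean in the labelled knockout livers with overlap, and Igfbp4 was close in both groups. Igfbp2, which encodes an abundant hepatic binding protein, was at 199, 1117 and 642 FPKM in the labelled knockout livers and at 212, 455 and 228 FPKM in the controls. Labelled knockout replicates 2 and 3 lay above every control, and replicate 1 lay below every control. The means were 653 ± 459 and 298 ± 136 FPKM, and the log2 difference was 0.90 (SE 0.65, 95% interval -0.66 to 2.45, limma adjusted p = 0.686). Without labelled knockout replicate 1 it was 1.59 (adjusted p = 0.128) and without replicate 2 it was 0.35. Igfbp2 lies on chromosome 1 from 72824503 to 72852474.

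Igfbp4, whose product binds IGFs and is cut by the protease PAPP-A, was at 602, 859 and 997 FPKM in the labelled knockout livers and at 616, 957 and 952 FPKM in the controls. In both groups replicate 1 was lowest. The log2 difference was -0.04 (95% interval -0.70 to 0.61, limma adjusted p = 0.975), with a sign that turned under quantile normalization (0.01). Igfbp4 lies on chromosome 11 from 99041244 to 99054392.

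Igfbp1, a binding protein gene that insulin represses and fasting raises, is not one of the 10 and was at 48.1, 532 and 90.6 FPKM in the labelled knockout livers and at 31.3, 16.0 and 22.5 FPKM in the controls. Every labelled knockout liver lay above every control (log2 difference 2.51, SE 0.84, limma adjusted p = 0.446), and replicate 2 carried most of the difference in mean. Igfbp1 and Igfbp2 together made up 24.5, 64.0 and 40.8% of the summed FPKM of Igfbp1 to Igfbp7 in the labelled knockout livers and 25.0, 31.7 and 19.4% in the controls. The ratio of Igfbp2 to Igf1 was 1.26, 11.1 and 6.02 in the labelled knockout livers and 2.02, 2.25 and 1.43 in the controls. For this ratio labelled knockout replicates 2 and 3 lay above every control and replicate 1 below every control. With Igfbp1 added to Igfbp2 it was 1.57, 16.4 and 6.87 in the labelled knockout livers and 2.32, 2.33 and 1.57 in the controls, where replicate 1 was level with the lowest control.

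**Figure D3:**
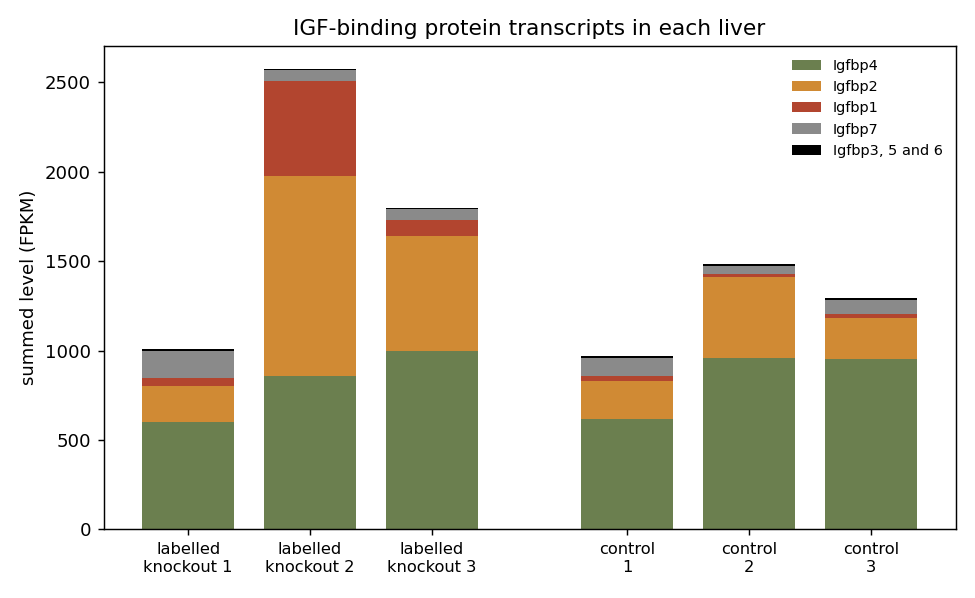
Summed FPKM of IGF-binding protein transcripts (vertical axis, from 0) in each of 3 labelled knockout livers (left) and 3 controls (right), stacked by gene. The sum was 1007, 2575 and 1797 FPKM in the labelled knockout livers and 971, 1483 and 1293 FPKM in the controls, and Igfbp2 and Igfbp1 fill most of the excess in labelled knockout replicates 2 and 3.

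Labelled knockout replicates 2 and 3, with the highest Igfbp2 of the 6 livers, also had high levels of genes that rise in fasting. The summed level of 15 fasting-linked genes was 3048, 14406 and 11424 FPKM in the labelled knockout livers and 2564 to 3560 FPKM in the controls. Control replicate 2, with the highest Igfbp2 of the controls, stood at 3019 FPKM. Of 14 tested, 6 were higher at an unadjusted p under 0.05 and 0 lower, where 6.34% of all tested genes were higher and 3.59% lower, and none passed after adjustment (smallest limma adjusted p = 0.386). The count was 9 higher without labelled knockout replicate 1, where 8.46% of all tested genes were higher. It was 2 to 4 higher when any other library was left out, lowest without control replicate 2. In those settings 4.15 to 4.67% of all tested genes were higher. Fgf21, a fasting hormone that can blunt growth hormone signalling in liver, was at 5.64, 71.2 and 19.4 FPKM in the labelled knockout livers and at 2.76, 1.30 and 2.36 FPKM in the controls (log2 difference 2.80, SE 0.80, limma adjusted p = 0.386, and 0.0423 without labelled knockout replicate 1). Ppargc1a, a coactivator of glucose production, was at 1.88, 2.52 and 2.52 FPKM against 2.72, 2.68 and 2.66 FPKM in controls, each labelled knockout liver below each control. Without overlap between groups, 4 fasting-linked genes were higher and 1 lower (Ppargc1a), where 10.7% of all tested genes were higher and 5.56% lower. With the replicate number as a block 7 were higher and 1 lower (Fgf1) at an unadjusted p under 0.05. In that setting 10.1% of all tested genes were higher and 6.07% lower. Feeding state and hour of collection are not given, and their part in the axis genes was not tested.

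Among 14 genes of the receptor relay, upstream of the axis targets, none had an unadjusted p under 0.05 and no group stood apart, with a median log2 difference of -0.04 where that of all tested genes was 0.04. Irs2, an insulin receptor substrate gene chosen after its values were seen, had the smallest p, at 5.18, 22.9 and 8.98 FPKM in the labelled knockout livers and 4.42, 1.63 and 6.14 FPKM in the controls (log2 difference 1.29, SE 0.57, limma adjusted p = 0.521). Without labelled knockout replicate 1, Irs2 was higher and Jak2 lower at an unadjusted p under 0.05. The kinase gene Jak2 was at 4.55 ± 2.13 FPKM in the labelled knockout livers and 5.61 ± 1.53 FPKM in the controls (SD, n = 3 each). Stat5a, the close relative of Stat5b, was at 6.51 ± 0.855 FPKM in the labelled knockout livers and 6.25 ± 1.98 FPKM in the controls, and Stat3 was at 29.8 ± 6.39 and 34.5 ± 7.18 FPKM.

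Of 16 genes listed as brakes on the relay, a list that also holds the receptor gene Lepr and the repressor gene Cux2, 14 were tested. Among them 1 was higher at an unadjusted p under 0.05, where 6.34% of all tested genes were higher. This was Ptpn11, a phosphatase gene, at 18.0 ± 0.955 against 13.9 ± 1.94 FPKM in controls. Its p was above 0.05 without any 1 of the labelled knockout livers and without control replicate 1 or 2. With the replicate number as a block 2 were higher (Ptpn11 and Socs3) and 1 lower (Cux2), where 10.1% of all tested genes were higher and 6.07% lower. The groups did not overlap for 2, both higher, where 10.7% of all tested genes were higher in this way. The second was Socs3, an inflammation-induced suppressor, at 6.30, 4.33 and 4.38 FPKM in the labelled knockout livers and 4.19, 3.74 and 2.68 FPKM in the controls (log2 difference 0.40, limma adjusted p = 0.556). Socs1 did not pass the filter on low values and was at 0.949, 0.582 and 1.35 FPKM against 0.594, 0.635 and 0.333 FPKM in controls. Beside Socs3, the acute phase gene Saa1 was at 615, 75 and 206 FPKM in the labelled knockout livers and 85.7, 39.1 and 47.0 FPKM in the controls. Of 17 tested acute phase genes 4 were higher and 2 lower at an unadjusted p under 0.05, where 6.34% of all tested genes were higher and 3.59% lower. With the replicate number as a block 7 were higher and 3 lower, where 10.1% of all tested genes were higher and 6.07% lower. The counts were 2 and 1 without labelled knockout replicate 1, 5 and 2 without replicate 2, and 2 and 0 without replicate 3. They were 4 and 0 without control replicate 1, 1 and 1 without control replicate 2, and 2 and 3 without control replicate 3. In these settings 4.15 to 8.46% of all tested genes were higher and 1.89 to 9.09% lower.

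The rest of the IGF system was sparse in liver. Only 7 of 14 further genes were tested, since the others fell under 1 FPKM. Igf2, silenced in adult mouse liver, was at most 0.0939 FPKM in the labelled knockout livers and at most 0.208 FPKM in the controls, and the receptor gene Igf1r was at 0.448 ± 0.0710 and 0.471 ± 0.0796 FPKM. Igf2r, which clears IGF2, was at 10.2 ± 1.96 FPKM in the labelled knockout livers and 7.38 ± 1.63 FPKM in the controls (log2 difference 0.42, limma adjusted p = 0.552). With the replicate number as a block it joined Igfbp1 as higher at an unadjusted p under 0.05. Igfbp3, the partner of IGFALS and IGF1 in blood, was at 5.87 ± 0.933 and 6.72 ± 2.43 FPKM. Igfbp5 was lower at an unadjusted p under 0.05, at 0.860 ± 0.264 and 2.51 ± 1.25 FPKM (limma adjusted p = 0.458). That p was above 0.05 for Igfbp5 without labelled knockout replicate 2 or 3, and for both it and Igfbp1 without control replicate 2 or 3. Igfbp7, a gene of endothelial cells, was at 149, 61.0 and 61.3 FPKM in the labelled knockout livers and 100.3, 45.6 and 81.7 FPKM in the controls, where summed endothelial markers were at 291, 158 and 160.0 FPKM and 326, 98.1 and 293 FPKM.

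A list of transcription factor genes of the hepatic growth hormone response, with the cofactor genes Ncor1 and Hdac3, held 15 tested genes. Their median log2 difference was -0.00051. At an unadjusted p under 0.05, 1 was higher (Cebpb) and 1 lower (Foxa2), where 6.34% of all tested genes were higher and 3.59% lower. Neither had such a p without labelled knockout replicate 2, nor Foxa2 without control replicate 2. Cebpb, a factor of the acute phase and of fasting, was at 64.6 ± 7.88 FPKM in the labelled knockout livers and 42.1 ± 9.95 FPKM in the controls, and the pioneer factor gene Foxa2 at 13.6 ± 2.10 and 19.5 ± 2.68 FPKM. Nr3c1, the glucocorticoid receptor and a partner of STAT5B on DNA, was at 20.1, 11.7 and 12.9 FPKM against 24.2, 18.9 and 19.3 FPKM in controls (log2 difference -0.49, limma adjusted p = 0.530). Its adjusted p was 0.0464 with sample quality weights, and it was lower at an unadjusted p under 0.05 with the replicate number as a block and without labelled knockout replicate 1. Onecut1, which encodes HNF6, was at 10.5, 2.11 and 4.46 FPKM against 11.1, 3.31 and 4.42 FPKM in controls, highest in replicate 1 of both groups as Cish was.

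Growth hormone also sets the level of sex-biased liver genes. Of 26 tested female-biased genes 23 had a negative log2 difference, as did 4813 of all 10963 tested genes. At an unadjusted p under 0.05, 6 were lower and 0 higher, where 3.59% of all tested genes were lower and 6.34% higher. Among the 6, Cyp2c40 and Cyp2c69 are close copies, as are Slc22a26 and Slc22a27, so the count may not be of separate changes. The groups did not overlap for 7, all lower, where 5.56% of all tested genes were lower in this way. The median log2 difference was -0.93, and no gene passed after adjustment (smallest limma adjusted p = 0.187). Without 1 library the number lower ran from 6 to 13, highest without control replicate 2, and 0 or 1 was higher. Of all tested genes 1.89 to 9.09% were lower in these settings, and 2.55% without control replicate 2. With the replicate number as a block 10 were lower and 0 higher, where 6.07% of all tested genes were lower and 10.1% higher. Slc22a26, an organic anion transporter gene, was at 24.6, 39.8 and 36.6 FPKM in the labelled knockout livers and 78.4, 81.8 and 100.7 FPKM in the controls. Cyp3a44, a cytochrome P450 gene, was at 3.90, 19.8 and 8.75 FPKM against 427, 87.3 and 239 FPKM in controls. Both belong to families of close copies, so their levels are uncertain, and both were chosen after their values were seen.

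Cyp2b9 and Sult2a1, which act on drugs and steroids, overlapped between groups. They were set to be named whatever their values, from a list chosen with earlier results of these data known. Cyp2b9 was at 226 ± 147 FPKM in the labelled knockout livers and 320.2 ± 75.1 FPKM in the controls. Sult2a1 was at 60.6, 301 and 519.5 FPKM against 872, 116 and 629 FPKM in controls. Cux2, a female-biased repressor gene also listed among the brakes, was at 8.95, 2.69 and 5.83 FPKM in the labelled knockout livers and at 19.7, 5.49 and 14.1 FPKM in the controls (means 5.82 ± 3.13 and 13.1 ± 7.14 FPKM, limma adjusted p = 0.576). It was lower in the labelled knockout liver of each number.

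Of 22 male-biased genes 13 were tested, with a median log2 difference of -0.45. At an unadjusted p under 0.05, 2 were lower and 0 higher, where 3.59% of all tested genes were lower and 6.34% higher. The groups did not overlap for 3, all lower (Cyp7b1, Mup3 and Serpina1e), where 5.56% of all tested genes were lower in this way. With the replicate number as a block 4 were higher (Cyp2d9, Elovl3, Gstp1 and Mup20) and 4 lower (Cyp7b1, Mup3, Serpina1e and Serpina3k), where 10.1% of all tested genes were higher and 6.07% lower. Without 1 library 2 to 4 were lower and 0 to 2 higher, where 1.89 to 9.09% of all tested genes were lower and 4.15 to 8.46% higher. The difference between female-biased and male-biased genes was not tested. Hsd3b5 and Cyp4a12a, steroid and fatty acid enzymes of male liver, did not pass the filter and were at most 0.0888 and 0.256 FPKM in the labelled knockout livers and at most 0.598 and 0.0873 FPKM in the controls. Elovl3, a fatty acid elongase gene, was at 0.914, 4.82 and 6.51 FPKM against 0.108, 2.43 and 3.47 FPKM in controls, higher in each number. Serpina3k, an antiprotease gene of a family of close copies, was at 619, 2314 and 962 FPKM against 1159, 4705 and 1853 FPKM in controls, lower in each number (log2 difference -0.96, limma adjusted p = 0.667 and 0.161 with the replicate number as a block).

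**Figure D4:**
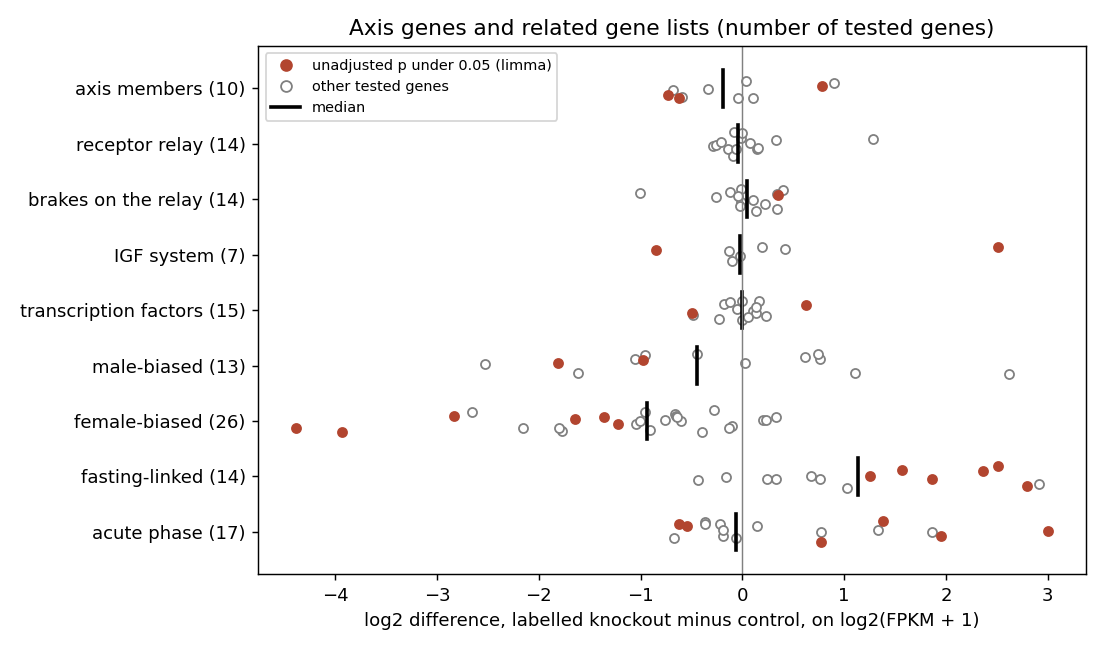
Log2 difference between labelled knockout and control livers (horizontal axis, log2(FPKM + 1) scale) of each tested gene of the axis and of 8 related lists, with the number of tested genes in brackets. Red points had an unadjusted p under 0.05 in limma and black bars are medians, which ran from -0.93 for female-biased to 1.14 for fasting-linked genes.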

How the data were processed

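Per the labels' protocols, poly(A) RNA of frozen liver was sequenced from strand-preserving libraries as single-end reads. Per the submitters' processing notes, which name STAR, DESeq2 and mm10, reads were processed by the authors. The tools' roles and versions, the annotation and strand use are not known from these sources. The authors deposited 1 table of FPKM values, whose unit was read from the values. FPKM divides by library total, so an abundant gene lowers all others. Values were taken as log2(FPKM + 1) for genes reaching 1 FPKM in 3 or more libraries (10963, all 10 axis genes among them) and tested with limma 3.58.1 (R 4.3.3, intensity trend, two-sided, Benjamini-Hochberg over all tested genes, threshold 0.05) without a block. The same test was checked on simulated data with the same spread for every gene and large changes. That check does not measure the test's power or error in these data. Log2 differences are labelled knockout minus control and understate changes of low genes. Read totals rest on genes with 1 annotated transcript over 1500 bases and values under 0.5 FPKM, of which 61.7 to 65.6% were whole reads to within 0.05 (10% by chance). A count test was not run.

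The axis genes and lists were chosen with earlier results of these data known. Named genes are the 10, Prkci, a set written out by name, and the 5 profiles nearest to Igf1, and 1 of the set is not reported here. Other genes named were chosen after their values were seen. Deviations from group means correlated at 0.477, 0.279 and 0.283 for the livers numbered 1, 2 and 3. All are above the 0.1 taken to mean that the numbers pair the samples, which the labels do not state. Livers of unlike number gave -0.384 to 0.120, and labelled knockout replicate 3 with control replicate 2 (0.120) was above 0.1 too. The main test has no block, and the block is given as an alternative. Coordinates are from GENCODE M21, whose build GRCm38 is mm10.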

Additional observations from a re-analysis of the deposited data

How the results depend on the processing

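Over 19 alternatives Ghr, Prlr, Cish, Igfals and Igfbp2 kept the sign of their difference, while that of Igf1 came to -1.6e-05 without both livers numbered 2, and Bcl6 kept it over 18 (it did not pass the filter at 5 FPKM). Sample quality weights gave 537 called genes in place of 3, among them 1 axis gene in place of 0, and 5 axis genes at an unadjusted p under 0.05 in place of 3 (26.9% of all tested genes). Leaving out 1 library gave 2 to 153 called genes, 1 to 5 axis genes at an unadjusted p under 0.05 (6.04 to 17.5% of all tested genes) and 3 to 5 without overlap (21.9 to 38.4%). Without both livers numbered 1 these were 32, 5 (14.7%) and 7 (48%), without both numbered 2 there were 5 called genes, and without both numbered 3 there were 5 called genes and 0 axis genes at that p (3.59%). The cause was not tested. With the replicate block 3 genes were called, 2 of them also called without it. The same 3 axis genes (Ghr, Prlr and Bcl6) had an unadjusted p under 0.05 and 0 passed after adjustment, while 1773 of all tested genes had such a p in place of 1089. The difference of Stat5b turned to -0.020 with median centring, -0.0046 with quantile normalization, -0.15 with quality weights and -0.086 without both numbered 2, and ran from -0.10 to 0.12 with 1 library left out. For Igfbp4 it turned to 0.012 with quantile normalization, 0.22 with quality weights and 0.017 without both numbered 2, and ran from -0.25 to 0.17. For Socs2 it turned to -0.50 without both numbered 3 and ran from -0.56 to 0.63. The 3 livers per group limit the precision.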

Other observations

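Control replicate 2 stood apart from the other controls in several growth hormone dependent genes, chosen here after their values were seen. A1bg, a female-biased plasma protein gene, was at 173, 83.5 and 511 FPKM in the labelled knockout livers, and at 897, 27.4 and 2141 FPKM in the controls. Cyp3a16, a female-biased cytochrome P450 gene, was at 5.27, 19.1 and 81.0 FPKM in the labelled knockout livers and at 328, 10.1 and 251 FPKM in the controls. On the male-biased side Slco1a1, an anion transporter gene, was at 18.7 FPKM in control replicate 2 and at no more than 0.198 FPKM in any other liver. Serpina1e, an antiprotease gene of a family of close copies, was at 4.41, 6.91 and 3.99 FPKM in the labelled knockout livers and at 18.6, 212 and 8.84 FPKM in the controls. The same control had the highest Ghr, Igf1 and Socs2 of the 6 livers and the lowest Prlr of the controls.

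Labelled knockout replicate 1 was the liver with the highest levels of several other genes. Mup20, a male-biased urinary protein gene, was at 1676 FPKM there, against 135 and 96.0 FPKM in the other labelled knockout livers and 35.0, 103 and 24.4 FPKM in the controls. C6, a complement gene, was at 65.9, 5.85 and 10.4 FPKM in the labelled knockout livers and at 11.1, 5.41 and 13.5 FPKM in the controls. S100a8, a neutrophil gene, was at 139, 5.54 and 4.27 FPKM against 13.1, 4.09 and 5.34 FPKM in controls. This liver had the lowest Igfbp2 and Igfbp4 of the 6 and the highest Igf1 and Stat5b of its group.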
